A study of Mus musculus with 4 samples.

Results

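The mid-preimplantation step from the 4-cell to the 8-cell stage of the mouse embryo was examined in single cells read with HIT-scISOseq, a long-read method in which full-length cDNA molecules carry a cell barcode and a unique molecular identifier (UMI). Cells were taken from the gene and isoform tables by the stage that opens their column name and were grouped into embryos by the first number after it. This gave 5 4-cell embryos with 17 cells and 4 8-cell embryos with 26 cells, which are 9 of the 43 oocytes, zygotes and embryos numbered in the tables and 43 of their 121 cells. Both groups were untreated and had the strain label DBA/2J x C57BL/6J, whereas the series design describes superovulated C57BL/6J females, 6 to 8 weeks old, mated with DBA/2NCrl males. The 4-cell embryos were collected 54 to 56 h and the 8-cell embryos 68 to 70 h after the injection of hCG. The tables join several sequencing runs without giving the run of an embryo, so no effect of the run could be told apart from that of the stage.

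Between these stages the mouse embryo has already replaced most of the transcripts stored in the egg by its own, and it ends a burst of short-lived transcription that followed the activation of its genome. At the 8-cell stage its cells compact: E-cadherin junctions and the actin and myosin cortex draw the cells together, an apical pole forms, and the outer cells later build the sealed epithelium of the trophectoderm. Early cleavage uses pyruvate and lactate as fuel and small, sparsely folded mitochondria, and glucose use, respiration and the making of ribosomes expand towards the blastocyst.

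Values below are copies per 100,000 UMIs of a cell, given as the mean of the cells of each embryo. Lists of values run from embryo 1 to 5 of the 4-cell stage and then from embryo 1 to 4 of the 8-cell stage. The median cell held 28114, 12706, 21148, 42173 and 41009 UMIs in the 4-cell embryos and 33500, 29320, 11844 and 36164 in the 8-cell embryos. Depth overlapped between the stages (exact permutation test over embryos, two-sided, p 0.873), with 4-cell embryo 2 and 8-cell embryo 3 the shallowest. Single cells ranged from 4985 to 43842 UMIs at the 4-cell and from 11012 to 42673 UMIs at the 8-cell stage. A single UMI of the shallowest cell was 20.1 copies in that cell and 10.03 in the mean of its embryo, 4-cell embryo 2, so values of about that size or below can rest on a single molecule there. In 8-cell embryo 3 these were 9.08 and 3.03 copies. The tables held 4, 2, 3, 4 and 4 cells of the 4-cell embryos and 8, 8, 3 and 7 cells of the 8-cell embryos.

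With every cell thinned to 10000 UMIs and the 1 cell with fewer, of the 2 of 4-cell embryo 2, left out, the median cell of an embryo held 3546, 3414, 3460.0, 3304 and 3364 genes at the 4-cell stage and 2855, 2858, 2620.2 and 2880 genes at the 8-cell stage. All 8-cell embryos lay below all 4-cell embryos, a difference of -614 genes (3418 ± 92.2 against 2803 ± 122, SD; exact permutation p 0.00794, the smallest that 126 arrangements can give). Without thinning the stages overlapped, with 5335 ± 1088 and 4383 ± 1049 genes per cell (exact permutation p 0.254, 0.508 adjusted over the 2 depth measures). Mitochondrial transcripts made up 11.95, 11.3, 6.07, 4.91 and 4.19% of the UMIs in the 4-cell embryos and 8.45, 8.20, 1.97 and 1.55% in the 8-cell embryos. Embryos 1 and 2 of each stage were the high ones. For genes and isoforms described one by one, a call that ended without these 4 embryos, which leaves 3 against 2, is marked below; the part of this share in the results was not tested.

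**Figure D1:**
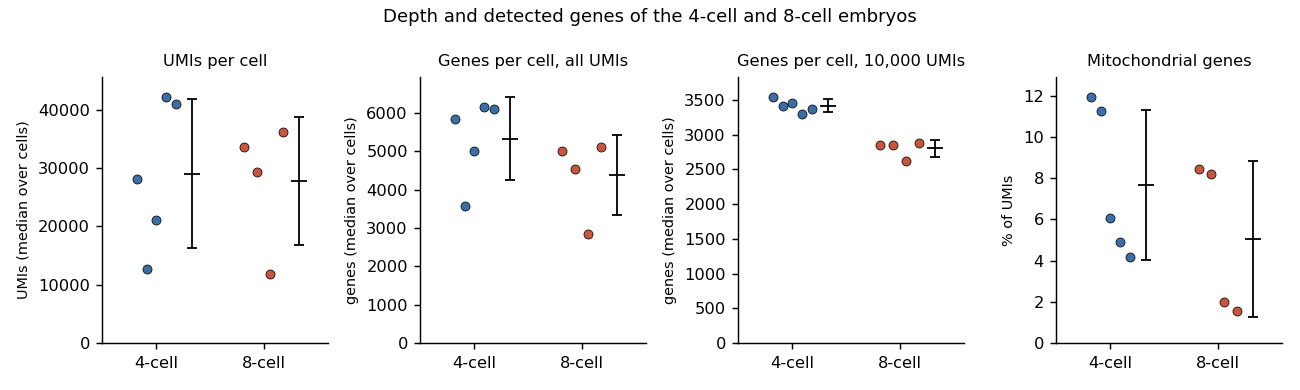
UMIs per cell, genes per cell with all UMIs and after thinning to 10000 UMIs (1 of the 2 cells of 4-cell embryo 2 left out), and the mitochondrial share of UMIs (%) for the 5 4-cell and 4 8-cell embryos; dots are embryos and bars are the mean ± SD. UMIs per cell overlap between the stages, while the thinned gene counts of the 8-cell embryos, 2620.2 to 2880, all lie below those of the 4-cell embryos.

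Of 11682 genes tested with limma, 1749 (14.97%) were called, with the limits of 1 for the size of the log2 change and of 0.01 for the unadjusted p. Of these 522 (4.47% of those tested) were higher and 1227 (10.5%) lower at the 8-cell stage. At an adjusted p under 0.05 and the same change, 493 and 1159 genes were called. The split between the directions depended on the scaling of the embryos. The median log2 change of all genes was -0.16 with the deposited scaling and 0 with TMM scaling, which gave 806 higher and 740 lower genes, and edgeR on the recovered UMIs gave 628 and 606 of 6234 genes, but DESeq2 on the same genes gave 497 and 682. The TMM factors were 1.14, 2.43, 1.63, 1.09 and 1.10 for the 4-cell and 0.808, 1.03, 1.77 and 0.853 for the 8-cell embryos, highest in the embryos with the fewest UMIs. Medians of gene lists are therefore given relative to that of all genes, under both scalings. The embryos of the stages did not overlap for 277 of the higher and 553 of the lower genes, beside 10.2% of all genes tested (1189), and 259 higher and 638 lower genes were called whichever single embryo was left out.

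Stage labels were compared with marker genes. Markers of the late 2-cell stage were near 0: Zscan4d held 0.923, 0, 3.15, 1.15 and 0 copies at the 4-cell stage and 0 in all 8-cell embryos, Zscan4c at most 4.67 and Zfp352 at most 1.17 copies in any embryo. The trophectoderm factor Cdx2 had 0 UMIs in the 4-cell embryos, which allows up to 0.572 copies (3 UMIs over the stage), and 1 UMI in the 8-cell embryos, and Gata3 held 0.114 and 0.824 copies. Tead4, Nr5a2, Tfap2c and Klf5, factors of the cleavage embryo, were present in both stages (8.69 and 9.70, 9.61 and 12.3, 7.07 and 12.2, 9.16 and 16.1 copies), and none of the 4 was called. Klf5 was called without 4-cell embryo 5 (log2 change 1.37) and with TMM scaling (1.26). None of the markers given here went against the stage labels. Krt18 (log2 change 3.05) and Krt8 (2.07), of the same trophectoderm set, were called higher at the 8-cell stage. The oocyte markers H1foo and Oosp1 were still present in every embryo of both stages. These are described further below.

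Among the 132 higher genes with at least 10 copies at the 8-cell stage, an adjusted p under 0.05 and embryos apart, the 15 with the largest rise are described first, apart from some that are given with their functional group. Crip2, which encodes a LIM-domain protein, had 6.09, 10.03, 0, 2.96 and 0.598 copies in the 4-cell and 46.9, 33.8, 49.2 and 68.7 in the 8-cell embryos (log2 change 4.11 ± 0.60, limma adjusted p 5.85e-07). The 4-cell embryos were spread from 0 to 10.0 copies, far below the lowest 8-cell embryo. Mylpf, a myosin regulatory light chain best known from fast skeletal muscle, held 5.94, 0, 4.88, 2.31 and 3.79 against 66.7, 46.9, 69.0 and 53.6 copies (log2 change 3.77 ± 0.42, limma adjusted p 1.22e-09). Its lowest 8-cell embryo was far above the highest 4-cell embryo. That the stages lay apart was a condition of the choice of these genes. Ass1, the argininosuccinate synthase that leads to arginine, was present in 4-cell embryo 1 alone (2.62 copies) and at 18.1, 13.5, 11.5 and 8.55 copies in the 8-cell embryos (log2 change 3.48 ± 0.45, limma adjusted p 3.52e-08). Id3, an inhibitor of bHLH transcription factors, held 3.17, 0, 1.52, 7.82 and 7.82 copies and then 73.0, 15.7, 152 and 102 (log2 change 3.34 ± 0.52, limma adjusted p 3.01e-06). The 8-cell embryos lay above all 4-cell embryos but were spread widely, with embryo 2 lowest.

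Khdc3, which encodes a component of the maternal complex under the egg membrane, stood out as an oocyte-list gene that rose: 6.82, 0, 1.52, 10.7 and 5.63 copies became 72.0, 31.2, 95.3 and 85.8 (log2 change 3.31 ± 0.54, limma adjusted p 6.55e-06). Its mean in oocytes was 5.11 copies, below every 8-cell embryo. Lrpap1, a chaperone of the endoplasmic reticulum, held 13.9, 4.90, 20.6, 18.6 and 9.50 and 68.7, 84.8, 142 and 185 copies (log2 change 2.87 ± 0.44, limma adjusted p 1.82e-06). Sat1, which acetylates polyamines, had 56.9, 96.9, 26.9, 22.3 and 35.1 and 255, 129, 267 and 294 (log2 change 2.67 ± 0.50, limma adjusted p 7.83e-05). Both were present in every embryo of either stage. Ybx3, an RNA-binding cold-shock protein, had 3.68 and 23.7 copies on average, and Lasp1, an actin-binding LIM protein, 1.07 and 12.2. The values were for Vnn1, a pantetheinase, 0.987 and 14.1, for Bok, a Bcl2-family protein, 1.27 and 14.4, and for Jarid2, a subunit of Polycomb complexes, 2.27 and 18.9. All of these kept their call whichever embryo was left out and without the 4 embryos highest in mitochondrial RNA.

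Aqp3, a channel for water and glycerol and the last of these rises described here by position, lies at chr4:41092722-41098183 (mm10, minus strand). It held 0, 0, 0, 1.82 and 0.622 copies in the 4-cell and 12.3, 10.05, 12.2 and 23.7 in the 8-cell embryos (log2 change 3.24 ± 0.39, limma adjusted p 8.08e-09), so that 3 of 5 4-cell embryos had none and every 8-cell embryo had at least 10 copies. Its main isoform, 92.3% of the gene, began at the RefSeq start itself. The 250 bases before that start (chr4:41098184-41098433, minus strand, GRCm38.p6, from RefSeq) are printed with matches to the TATA box and the GC box, on either strand, in capitals. The former lies 29 and the latter 73 bases before the start.

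Aqp3: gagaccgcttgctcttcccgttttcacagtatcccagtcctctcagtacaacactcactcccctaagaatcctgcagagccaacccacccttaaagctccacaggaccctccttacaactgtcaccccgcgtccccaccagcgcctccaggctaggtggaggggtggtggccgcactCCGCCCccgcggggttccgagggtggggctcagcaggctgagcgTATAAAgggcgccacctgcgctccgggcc

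The motifs, which were TATAAA for the first box, GGGCGG for the second box and CCGGAA for the core of ETS factor sites, were searched on both strands of the 250 bases before the starts of 32851 RefSeq promoters. They occurred in 12.4, 32.7 and 12.03% of these. Of 9000 tested genes with a promoter in the table they occurred in 8.18, 62.2 and 26.4%, of 392 higher genes in 8.42, 61.7 and 20.2%, and of 943 lower genes in 7.74, 65.9 and 30.0%. The ETS core was thus less frequent before higher genes than before the tested genes, and both the GC box and the ETS core were more frequent before lower genes. No test was made of these shares, and a match describes letters, not a bound factor. Of 65 genes of cytoplasmic ribosomal proteins they occurred in 6.15, 50.8 and 41.5%.

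**Figure D2:**
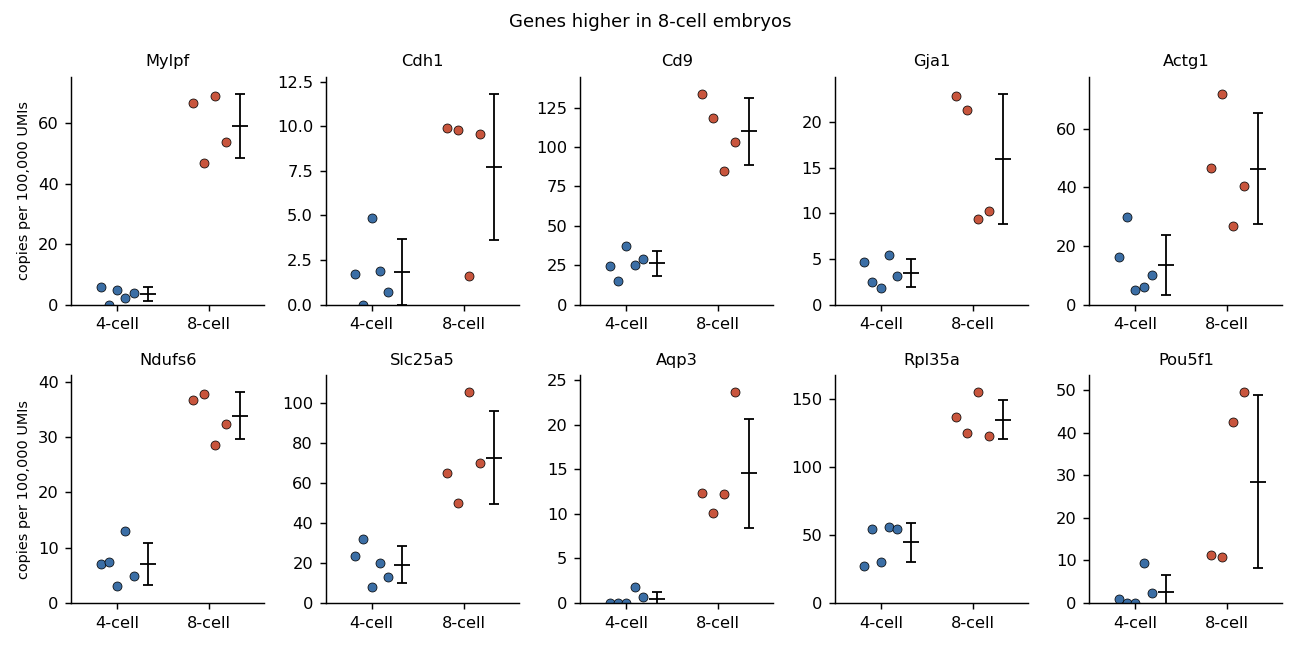
Copies per 100,000 UMIs of 10 genes that were higher at the 8-cell stage, from the myosin Mylpf to Pou5f1; each dot is an embryo (5 at the 4-cell, 4 at the 8-cell stage) and bars are the mean ± SD. Mylpf goes from 3.38 to 59.0 copies and Aqp3 from 0.488 to 14.6, with no overlap between the stages.

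Adhesion was described from lists of junction genes. Of 15 tested adherens junction genes 3 (20%) were higher and 0 lower, beside 4.47% and 10.5% of all genes. Cdh1, E-cadherin itself (chr8:106603351-106670246), held 1.72, 0, 4.88, 1.91 and 0.685 copies at the 4-cell and 9.91, 9.80, 1.59 and 9.60 at the 8-cell stage (log2 change 1.92 ± 0.46, limma adjusted p 0.00189). Embryo 3, the shallowest at the 8-cell stage, overlapped the 4-cell embryos, and the other 8-cell embryos were near 10 copies. Actn4, an actinin that links junctions to actin, held 3.98, 10.03, 11.1, 3.49 and 8.78 and 29.0, 21.2, 9.38 and 21.2 copies (log2 change 1.68 ± 0.43, limma adjusted p 0.00403), again with only 8-cell embryo 3 within the 4-cell range. The catenins that join E-cadherin to actin were not called: Ctnnb1 held 6.84, 14.9, 10.97, 5.32 and 5.53 and 8.90, 2.02, 4.76 and 5.99 copies (-0.32, adjusted p 0.652 by limma). Ctnna1 held 5.32, 2.45, 3.09, 4.68 and 3.12 and 4.50, 7.21, 7.58 and 11.5 (0.76, adjusted p 0.168 by limma). Ctnna1 was called without 8-cell embryo 1 (1.12), with TMM scaling (1.06) and by edgeR (1.17). Epcam, an epithelial adhesion molecule, overlapped as well, with 11.96 and 9.73 copies. Relative to all genes the median of the list was 0.10 with the deposited scaling and 0.04 with TMM scaling.

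In the tight junction list 3 of 13 genes (23.1%) were higher and 0 lower, beside 4.47% and 10.5% of all genes. The higher genes include occludin, Ocln (0.117 to 3.36 copies), and the claudin Cldn4 (0.477 to 3.87). The scaffold Tjp1 stayed at 1.28 and 1.29 copies and was not called. Gja1, the gap junction protein connexin 43, held 4.69, 2.45, 1.78, 5.42 and 3.10 copies and then 22.9, 21.4, 9.38 and 10.3 (log2 change 1.90 ± 0.46, limma adjusted p 0.00195). No 8-cell embryo reached down to the 4-cell embryos. Of 5 desmosome genes 1 (20%) was higher, Perp, a membrane protein of these plaques. Perp had 0 UMIs in all 4-cell embryos and 11.1, 5.01, 7.22 and 4.42 copies in the 8-cell embryos. Ocln, Cldn4 and Perp were below 10 copies and were picked out after their values were seen. The list medians relative to all genes were 0.48 (tight) and -0.08 (desmosome), and with TMM scaling 0.30 and 0.04.

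Of 19 tested basement membrane and integrin genes 3 (15.8%) were higher and 3 (15.8%) lower, beside 4.47% and 10.5% of all genes. With TMM scaling these were 3 and 1. The list median lay 0.53 with the deposited scaling and 0.46 with TMM scaling above all genes. The summed level went from 252 ± 58.6 to 467 ± 36.3 copies. The largest rise was that of Cd9, a tetraspanin that partners integrins: 24.7, 14.9, 36.9, 25.1 and 28.8 copies at the 4-cell and 134, 118, 84.4 and 103 at the 8-cell stage (log2 change 2.06 ± 0.44, limma adjusted p 0.000526), with every 8-cell embryo above every 4-cell embryo. The other 5 calls, at 10 copies or fewer in both stages, each ended when some single embryo was left out. Of 22 genes of apical polarity 0 were higher and 2 (9.09%) lower, beside 10.5% lower of all genes (with TMM scaling 1 and 1). The list median was -0.31 with the deposited scaling and -0.28 with TMM scaling relative to all genes. Prkci, the atypical protein kinase C of the apical complex, held 3.35 and 0.377 copies, Ezr, which encodes ezrin, 0.741 and 0.271, and neither was called. Pard6b, which binds the kinase Prkci encodes, held 0.858, 0, 0, 2.38 and 1.19 and 2.998, 3.60, 6.05 and 2.30 copies with a log2 change of 0.99, under the limit of 1. It was called without 4-cell embryo 4 (1.36), 4-cell embryo 5 (1.13) or 8-cell embryo 4 (1.11) and with TMM scaling (1.16). Most of these polarity genes lay under 10 copies, where the depth of single embryos limits what could be detected.

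The actin and myosin genes were the adhesion-related list with the most calls. Of 27 genes 11 (40.7%) were higher and 0 lower, beside 4.47% and 10.5% of all genes. The list median lay 0.90 with the deposited scaling and 1.0 with TMM scaling above all genes. The summed level of the list was 286, 322, 311, 338 and 374 copies at the 4-cell and 709, 689, 677 and 689 at the 8-cell stage. The stages were far apart and the 8-cell embryos close together (326 ± 32.7 against 691 ± 13.5). Actg1, cytoplasmic gamma-actin, held 16.3, 29.9, 5.09, 5.94 and 9.95 and 46.7, 71.8, 26.7 and 40.3 copies (log2 change 2.27 ± 0.53, limma adjusted p 0.00142), with 4-cell embryo 2 above 8-cell embryo 3. Actb, beta-actin, had lower values in this table, at 0.923, 2.45, 0, 0 and 1.97 and 6.92, 10.6, 7.64 and 4.91 copies (log2 change 2.25 ± 0.48, limma adjusted p 0.000552), without overlap. Whether its transcripts were scarcer than those of Actg1 was not tested. Capzb, which caps actin filament ends, held 1.63, 0, 1.78, 1.87 and 1.79 and 17.4, 14.1, 19.3 and 7.18 (log2 change 2.41 ± 0.43, limma adjusted p 3.66e-05), and the 4-cell embryos were all below 2 copies. Mylpf, described above, Tpm4, a tropomyosin (0.808 to 7.32 copies), and Myl6, a myosin light chain (32.5 to 81.9), were also higher. Of the 11 calls 6 held whichever embryo was left out: Mylpf, Capzb, Actg1, Actb, Tpm4 and Myl6. Without the 4 embryos highest in mitochondrial RNA 7 of the list were called. Without them Cdh1 (1.07), Actn4 (1.001), Gja1 (1.25), Cd9 (1.68) and Actg1 (2.001) kept their direction but not their call.

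Of 75 nuclear genes of oxidative phosphorylation 13 (17.3%) were higher and 0 lower, beside 4.47% and 10.5% of all genes. Of the 75, 64 had a positive log2 change. The list median lay 0.77 with the deposited scaling and 0.98 with TMM scaling above all genes. The summed level of the list was 2251, 2353, 2256, 2514 and 2422 copies in the 4-cell and 3762, 3332, 3406 and 3236 in the 8-cell embryos. The lowest 8-cell embryo was above the highest 4-cell embryo. Ndufs6, a subunit of complex I, held 7.05, 7.34, 3.09, 13.0 and 4.85 and 36.8, 37.8, 28.6 and 32.3 copies (log2 change 2.19 ± 0.50, limma adjusted p 0.00113). Ndufb8, another, held 4.98, 14.9, 6.66, 11.9 and 7.89 and 34.6, 43.3, 28.3 and 33.4 (log2 change 1.96 ± 0.45, limma adjusted p 0.00127). Neither overlapped between the stages. Ndufa12 held 22.0, 7.34, 19.8, 19.5 and 24.7 and 90.4, 60.6, 73.9 and 56.9 copies (log2 change 1.72 ± 0.49, limma adjusted p 0.0102). Ndufa3 had 12.1, 42.6, 13.9, 22.0 and 8.65 and 61.9, 60.7, 35.0 and 45.8 (log2 change 1.82 ± 0.46, limma adjusted p 0.00315), and 4-cell embryo 2 overlapped for Ndufa3. These genes of complex I and Uqcrb of complex III (23.9 to 80.2 copies) were the 5 of 13 whose call held whichever embryo was left out. With TMM scaling 21 of the 75 were called higher, and without the 4 embryos highest in mitochondrial RNA 0 were called. The 5 then had log2 changes of 2.04, 1.67, 1.52, 1.53 and 1.56.

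Of the 13 respiratory genes of the mitochondrial genome 0 were higher and 1 (7.69%) lower, beside 10.5% of all genes, with a median -0.27 relative to all genes (-0.05 with TMM scaling). The lower gene, mt-Nd4l of complex I, held 45.2, 76.8, 35.8, 31.1 and 29.2 and 15.2, 18.4, 7.22 and 6.81 copies (log2 change -1.48 ± 0.49, limma adjusted p 0.0288). Its stages did not overlap, and in both stages embryos 1 and 2, with the high mitochondrial shares, were above the others. Without the 4 embryos highest in mitochondrial RNA 6 of the 13 were lower and the median was -1.16 relative to all genes. The call of mt-Nd4l ended without 8-cell embryo 4 (-1.17) and with TMM scaling (-1.10). Of 24 genes of pyruvate dehydrogenase and the TCA cycle 5 (20.8%) were higher and 0 lower, beside 4.47% and 10.5% of all genes. With TMM scaling these were 10 and 0. The list median lay 0.85 with the deposited scaling and 0.99 with TMM scaling above all genes. Without the 4 embryos highest in mitochondrial RNA 1 of the list was higher. Sucla2, a subunit of succinyl-CoA ligase, held 5.50, 0, 6.66, 4.79 and 4.28 and 14.7, 12.8, 17.8 and 11.3 copies (log2 change 1.42 ± 0.33, limma adjusted p 0.00113), without overlap. Suclg2, the other beta subunit of this ligase, held 0, 30.1, 1.58, 1.87 and 0.595 copies against 6.01, 4.36, 3.03 and 3.82, where 4-cell embryo 2, of low weight, was the highest of all. The fitted log2 change of Suclg2 was 1.30 although its unweighted mean was lower at the 8-cell stage, as in 4 of the 522 higher genes, and without array weights it was 0.67 and not called. The call ended without 4-cell embryo 1 (1.10), 4-cell embryo 5 (1.10), 8-cell embryo 1 (1.11) or 8-cell embryo 2 (1.27), and without the 4 embryos highest in mitochondrial RNA (1.05). It also ended with the embryo number as a block (1.07).

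Of 15 tested genes of glucose uptake and glycolysis 1 was higher and 3 (20%) were lower, beside 10.5% of all genes, and the median was -0.19 relative to all genes (-0.31 with TMM scaling). Hk1, the hexokinase that commits glucose to the pathway, was present in 1 of 5 4-cell embryos, at 0.584 copies, and held 3.59, 9.19, 4.61 and 2.49 copies in the 8-cell embryos (log2 change 2.22 ± 0.32, limma adjusted p 5.02e-07). Ldhb, the lactate dehydrogenase form that favours pyruvate, went the other way, with 19.9, 14.9, 29.3, 7.75 and 7.34 copies at the 4-cell and 5.06, 2.53, 0 and 4.16 at the 8-cell stage (log2 change -1.55 ± 0.44, limma adjusted p 0.00895). Neither gene overlapped between the stages. Pkm, pyruvate kinase, was not called at 2.77, 4.90, 14.8, 14.0 and 14.0 and 3.84, 5.04, 0 and 5.55 copies, but was called lower without 4-cell embryo 1 (-1.56). The glucose carrier Slc2a1 held 0.237 and 0 copies, and the carrier Slc2a3 held 2.06 and 3.22 copies. The latter was called higher without 4-cell embryo 1 (1.20). Hk2 had 0 UMIs at the 4-cell stage and 1.09, 0, 1.59 and 1.46 copies in the 8-cell embryos, and was called without 8-cell embryo 2 (1.22). Gapdh had 0 UMIs at the 4-cell stage and 0.0953 copies at the 8-cell stage and was not tested. No stage mean of Gapdh was over 0.596 copies, so a value near 0 in this table, such as that of Slc2a1, need not mean that transcripts were missing, which was not tested. None of 7 pentose phosphate genes was called by limma in either direction, with a median -0.14 with the deposited scaling and 0.00 with TMM scaling relative to all genes.

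In other metabolic lists single genes were called, beside 4.47% higher and 10.5% lower of all genes. Fatty acid handling had 14.3% and 9.52%. Serine, one-carbon and nucleotide synthesis had 4.17% and 8.33%, and the sterol list 4.76% and 4.76%. In the list of fatty acid handling 3 of 21 genes were higher and 2 lower (with TMM scaling 3 and 0). Fabp3, a fatty acid carrier, held 2.64, 0, 0, 3.59 and 2.74 and 17.1, 25.7, 8.87 and 14.3 copies (log2 change 2.56 ± 0.54, limma adjusted p 0.000423), with no overlap. Acadm, which begins the oxidation of medium-chain fatty acids, held 18.2, 20.1, 15.3, 25.6 and 8.21 and 32.8, 39.5, 21.4 and 41.6 (log2 change 1.16 ± 0.32, limma adjusted p 0.00847). Its 4-cell embryo 4 overlapped 8-cell embryo 3, and the call ended without 4-cell embryo 5 (0.79). The log2 change of Acadm was also under 1 with no array weights (0.96) and with a pseudocount of 5 (0.96). With the embryo number as a block it was 0.73. Of 24 genes of serine, one-carbon and nucleotide synthesis 1 was higher and 2 lower. Tyms, thymidylate synthase, rose from 8.93, 0, 9.43, 19.8 and 2.68 to 32.4, 35.1, 27.7 and 25.8 copies (log2 change 1.997 ± 0.49, limma adjusted p 0.00234). Shmt1, which feeds the same folate cycle from serine, fell from 11.9, 2.45, 22.7, 14.4 and 20.2 to 1.47, 4.06, 0 and 1.78 (log2 change -2.50 ± 0.43, limma adjusted p 1.77e-05). Tyms did not overlap, and for Shmt1 4-cell embryo 2 lay within the 8-cell range. Of 21 sterol genes 1 was higher and 1 lower: Msmo1, a sterol oxidase, held 0.858, 10.03, 1.58, 1.25 and 0.622 and 10.3, 8.54, 5.84 and 15.9 copies (log2 change 2.40 ± 0.42, limma adjusted p 2.10e-05), with 4-cell embryo 2, at 1 UMI, within the 8-cell range. The medians of these lists lay 0.05, 0.28 and -0.07 from that of all genes, and with TMM scaling 0.07, 0.44 and -0.07.

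Of 15 nutrient transporters 2 (13.3%) were higher and 1 (6.67%) lower, beside 4.47% and 10.5% of all genes. Slc6a8, the creatine carrier, held 10.2, 9.79, 5.14, 6.16 and 2.61 and 29.8, 29.3, 30.9 and 21.6 copies (log2 change 2.18 ± 0.42, limma adjusted p 0.000114). Slc25a5, which exchanges ADP and ATP across the inner mitochondrial membrane, held 23.6, 31.8, 7.97, 19.9 and 12.9 and 65.2, 50.2, 105 and 70.03 (log2 change 1.94 ± 0.46, limma adjusted p 0.00186). For both, the lowest 8-cell embryo was above the highest 4-cell embryo. Of 10 ion pumps and aquaporins 2 (20%) were higher, among them Aqp3, and 2 (20%) lower. Atp1b3, a beta subunit of the sodium pump, was the more abundant lower gene, with 18.6, 14.9, 30.8, 34.7 and 29.5 and 4.13, 3.67, 9.16 and 10.5 copies (log2 change -2.09 ± 0.42, limma adjusted p 0.000226) and no overlap. The list medians were 0.48 and -0.05 relative to all genes, and 0.67 and 0.00 with TMM scaling. Without the 4 embryos highest in mitochondrial RNA, Fabp3 (1.90), Acadm (1.05), Tyms (1.76) and Atp1b3 (-1.59) were no longer called. Slc6a8, Slc25a5, Hk1, Ldhb, Shmt1, Msmo1, Sucla2 and Aqp3 still were.

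Of 86 tested genes of cytoplasmic ribosomal proteins 82 had a positive log2 change. Of the 86, 12 (14.0%) were called higher and 1 (1.16%) lower, beside 4.47% and 10.5% of all genes. The list median was 0.92 with the deposited scaling and 1.12 with TMM scaling above all genes. The summed level was 8842, 8465, 10766, 12019 and 9991 copies in the 4-cell and 16147, 16001, 19778 and 17295 in the 8-cell embryos. Every 8-cell embryo lay above every 4-cell embryo. The number of calls differed between settings: 39 were higher with TMM scaling, 58 of 84 by edgeR, and 2 without the 4 embryos highest in mitochondrial RNA. Rpl35a, of the large subunit, held 27.1, 54.8, 30.5, 55.9 and 54.5 and 137, 125, 155 and 123.05 copies (log2 change 1.52 ± 0.37, limma adjusted p 0.00252), with its stages well apart. Rpl35a, Rack1 (52.9 to 139.6 copies), Rpl13a (119 to 296) and Rpl4 (97.6 to 248) were the 4 of 12 whose call held whichever embryo was left out. Rpl3 held 33.4, 27.2, 16.4, 36.8 and 19.3 and 61.1, 87.2, 66.9 and 85.0 copies (log2 change 1.502 ± 0.50, limma adjusted p 0.0306) without overlap, but its call ended without 4-cell embryo 3 (1.40), 4-cell embryo 5 (1.34), 8-cell embryo 2 (1.46) or 8-cell embryo 4 (1.41). The call of Rpl3 also ended with the embryo number as a block (1.24). Rps2 and Rplp0, also abundant, were not called, at 109.6 and 146 and at 324 and 353 copies. The lower gene, Rpl3l, is the relative of Rpl3 known from muscle. It held 2.99, 40.1, 0, 1.23 and 2.41 copies at the 4-cell stage and 0 UMIs at the 8-cell stage, with most of its level in 4-cell embryo 2. Rpl35a (1.44), Rack1 (1.14), Rpl13a (1.20) and Rpl3 (1.62) were among those no longer called without the 4 embryos.

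Genes that build ribosomes are given next, and their difference from the ribosomal proteins was not tested. Summed, they held 1353 ± 243 copies at the 4-cell and 1348 ± 226 at the 8-cell stage. Of 41 ribosome biogenesis genes 1 (2.44%) was higher and 10 (24.4%) were lower, beside 4.47% and 10.5% of all genes. The list median was -0.20 relative to all genes (-0.05 with TMM scaling, which left 1 higher and 3 lower). By edgeR 1 was higher and 3 lower, and without the 4 embryos highest in mitochondrial RNA 1 and 5. Imp3, of the small-subunit processome, held 26.7, 29.9, 32.6, 26.0 and 23.8 and 4.78, 6.75, 6.20 and 7.80 copies (log2 change -1.92 ± 0.39, limma adjusted p 0.000272). Nop2, a methyltransferase of large-subunit RNA, had 12.5, 24.7, 26.4, 27.9 and 43.3 and 7.93, 7.51, 0 and 13.1 (log2 change -1.82 ± 0.41, limma adjusted p 0.000822). Imp3 did not overlap; Nop2 did, where 4-cell embryo 1 lay just below 8-cell embryo 4. Rrp9, a snoRNP protein, fell from 37.6 to 10.8 copies on average. The higher gene was Npm1, nucleophosmin, with 168, 179, 183, 251 and 161 and 366, 384, 526 and 393 copies (log2 change 1.04 ± 0.25, limma adjusted p 0.00183). Its stages lay apart, but its log2 change fell under 1 without 4-cell embryo 5 (0.97) or 8-cell embryo 3 (0.99). With the embryo number as a block it was 0.99. Ncl, nucleolin, was not called (26.7, 26.9, 46.1, 93.2 and 81.2 and 50.2, 63.9, 94.1 and 112 copies).

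Of 78 genes of the mitochondrial ribosome 11 (14.1%) were higher and 5 (6.41%) lower, beside 4.47% and 10.5% of all genes. With TMM scaling these were 21 and 1. The list median lay 0.70 with the deposited scaling and 0.89 with TMM scaling above all genes. Mrpl35 held 8.37, 0, 4.61, 8.47 and 4.32 and 21.1, 22.1, 28.6 and 14.2 copies (log2 change 1.70 ± 0.47, limma adjusted p 0.00796) and Mrpl27 2.55, 2.45, 1.58, 7.95 and 6.30 and 14.9, 16.4, 11.98 and 16.4 (log2 change 1.53 ± 0.44, limma adjusted p 0.0104). Both are large-subunit proteins and did not overlap between the stages. Mrpl24 rose from 3.53 to 10.9 copies on average. In the other direction Mrpl38 held 4.55, 0, 21.5, 16.7 and 16.2 and 3.66, 1.05, 1.59 and 1.88 copies (log2 change -2.04 ± 0.52, limma adjusted p 0.00333) and Mrpl41 21.5, 29.9, 58.1, 31.2 and 29.97 and 12.3, 13.8, 14.6 and 9.73 (log2 change -1.31 ± 0.39, limma adjusted p 0.0139). Only 4-cell embryo 2 overlapped for Mrpl38, and Mrpl41 did not overlap but lost its call with TMM scaling (-0.96) and with a pseudocount of 0.5 (-1.35). Mrpl38 was not called with the embryo number as a block (-1.44). Without the 4 embryos highest in mitochondrial RNA 1 gene of the list was higher and 1 lower.

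All 8 elongation factors had a positive log2 change, and 3 (37.5%) were called higher (5 with TMM scaling), beside 4.47% of all genes. The list median lay 1.01 with the deposited scaling and 1.24 with TMM scaling above all genes. Eef1a1, which brings the aminoacyl-tRNA to the ribosome, held 90.7, 51.6, 41.6, 76.6 and 63.0 and 205, 255, 244 and 179 copies (log2 change 1.67 ± 0.41, limma adjusted p 0.00271). Its exchange factor Eef1b2 held 10.03, 2.45, 28.1, 22.8 and 12.2 and 61.5, 52.1, 94.7 and 48.2 (log2 change 1.88 ± 0.41, limma adjusted p 0.000675). Eef1g, of the same exchange complex, held 22.2, 24.7, 14.8, 43.3 and 37.7 and 70.7, 83.9, 82.0 and 102 (log2 change 1.41 ± 0.41, limma adjusted p 0.0111). All 8-cell embryos were above all 4-cell embryos for each of the 3. Of 54 initiation factors 2 (3.70%) were higher and 7 (13.0%) lower, close to the 4.47% and 10.5% of all genes. Their median was 0.13 relative to all genes (0.32 with TMM scaling, which called 10 higher and 4 lower). Eif2s2, eIF2-beta, was among the most abundant of all genes named here, at 176, 134, 121, 236 and 159 and 481, 441, 516 and 439.9 copies (log2 change 1.40 ± 0.43, limma adjusted p 0.0180). Eif4ebp1, the inhibitor of the cap-binding factor, held 14.3, 2.45, 13.5, 18.7 and 37.3 and 59.1, 35.9, 80.5 and 55.6 (log2 change 1.39 ± 0.43, limma adjusted p 0.0192). Eif2s2 did not overlap, and Eif4ebp1 did only where 4-cell embryo 5 exceeded 8-cell embryo 2. With the embryo number as a block Eif2s2 was not called (1.36). Of 35 proteasome genes 1 (2.86%) was higher and 0 lower (with TMM scaling 10 and 0), beside 4.47% and 10.5% of all genes. The list median lay 0.62 with the deposited scaling and 0.83 with TMM scaling above all genes. The higher gene was the ATPase Psmc6, with 12.7, 12.5, 8.24, 12.7 and 11.6 and 33.2, 26.9, 28.8 and 41.9 copies (log2 change 1.43 ± 0.37, limma adjusted p 0.00381) and no overlap. Eef1g (1.38), Eif2s2 (1.43), Eif4ebp1 (1.40), Mrpl35 (1.68), Mrpl27 (1.17) and Mrpl41 (-1.42) were not called without the 4 embryos highest in mitochondrial RNA.

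**Figure D3:**
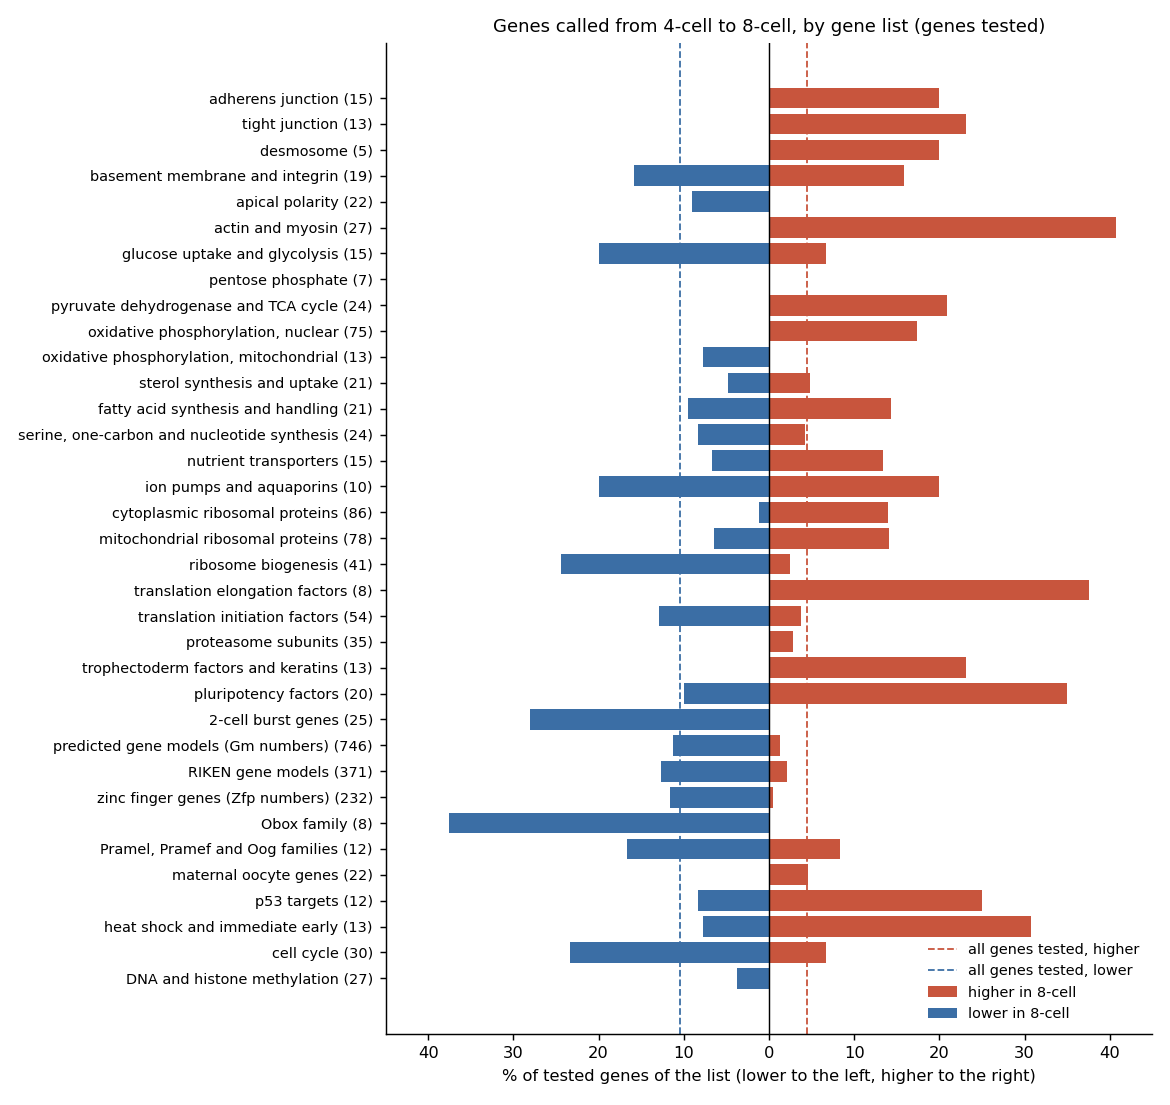
Share of the tested genes of each list with 5 or more tested genes that were called higher (to the right) or lower (to the left) at the 8-cell stage, with the deposited scaling. Dashed lines are the shares of all genes tested, 4.47% higher and 10.5% lower. Actin and myosin genes (40.7%), elongation factors (37.5%) and pluripotency factors (35.0%) have the largest shares of higher genes, and the Obox family (37.5%) has the largest share of lower genes.

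Of 20 tested pluripotency and lineage factors 7 (35.0%) were higher and 2 (10%) lower, beside 4.47% and 10.5% of all genes. The list median was 0.57 with the deposited scaling and 0.78 with TMM scaling above all genes. All 9 calls of the list held whichever embryo was left out. Pou5f1, which encodes Oct4, held 0.923, 0, 0, 9.30 and 2.44 and 11.2, 10.8, 42.6 and 49.5 copies (log2 change 2.60 ± 0.53, limma adjusted p 0.000245), with 8-cell embryos 3 and 4 well above embryos 1 and 2 and no overlap with the 4-cell stage. Gata6, a factor of the later primitive endoderm, held 0, 10.03, 0, 0 and 1.20 and 17.9, 16.2, 27.5 and 9.69 copies (log2 change 3.44 ± 0.42, limma adjusted p 9.95e-09), with 4-cell embryo 2, the shallowest, just within the 8-cell range by 1 UMI. Tbx3, a T-box factor, held 1.15, 2.45, 5.09, 1.23 and 0.598 and 14.6, 15.2, 7.43 and 16.4 (log2 change 2.71 ± 0.41, limma adjusted p 1.60e-06). Tfcp2l1 and Klf4 went from 0.475 to 5.67 and from 1.47 to 7.81 copies. Tdgf1, a Nodal co-receptor, held 8.16, 0, 13.8, 4.17 and 7.08 and 21.0, 12.3, 13.6 and 19.2 (log2 change 1.38 ± 0.38, limma adjusted p 0.00711); 4-cell embryo 3 overlapped. The 2 lower genes were Fgf4, the growth factor of the inner cell mass, with 5.78, 22.5, 17.99, 2.92 and 6.19 and 0.376, 2.05, 8.87 and 1.12 copies (log2 change -1.63 ± 0.41, limma adjusted p 0.00297), and Gata4, with 6.76 and 0.943 copies on average. Fgf4 overlapped through 8-cell embryo 3 and was not called by DESeq2 (-1.87). Nanog held 0.268 and 0.516 copies and was not called, and Sox2, at 0.309 and 0.195 copies, did not pass the filter.

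Of 13 tested trophectoderm factors and keratins 3 (23.1%) were higher and 0 lower, beside 4.47% and 10.5% of all genes. With TMM scaling these were 5 and 0. The list median lay 0.74 with the deposited scaling and 0.83 with TMM scaling above all genes. Krt18 held 2.62, 0, 0, 0.662 and 0 and 11.1, 7.56, 11.9 and 15.2 copies (log2 change 3.05 ± 0.50, limma adjusted p 6.95e-06) and its partner Krt8 0.858, 0, 0, 0 and 0.598 and 4.85, 5.79, 0 and 6.15 (log2 change 2.07 ± 0.44, limma adjusted p 0.000464). Krt18 did not overlap, while 8-cell embryo 3 had no UMI of Krt8. The third higher gene, the epithelial factor Elf3, held 0, 0, 0, 0 and 1.81 and 2.62, 1.74, 21.0 and 8.90 copies (log2 change 1.94 ± 0.50, limma adjusted p 0.00417), highest in 8-cell embryo 3 and overlapping where 4-cell embryo 5 just exceeded 8-cell embryo 2. Without the 4 embryos highest in mitochondrial RNA, Klf4 (1.69), Tdgf1 (1.19), Fgf4 (-0.54), Gata4 (-1.65) and Krt8 (1.10) were not called.

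Of 13 heat shock and immediate early genes 4 (30.8%) were higher and 1 (7.69%) lower, beside 4.47% and 10.5% of all genes. The summed level of the list was 320.0, 235, 327, 457 and 384 and 896, 847, 824 and 1132 copies, with no overlap. The list median was 0.16 with the deposited scaling and 0.21 with TMM scaling relative to all genes. Hspa8, the constitutive cytosolic chaperone of the Hsp70 family, held 62.4, 37.0, 43.0, 144 and 70.7 and 298, 282, 201 and 483 copies (log2 change 2.06 ± 0.42, limma adjusted p 0.000272). Hsp90aa1 held 51.3, 42.1, 38.3, 44.9 and 45.2 and 222, 194, 155 and 158 (log2 change 2.03 ± 0.54, limma adjusted p 0.00518), and Hsp90ab1 105, 54.3, 133, 169 and 149 and 296, 294, 307 and 382 (log2 change 1.23 ± 0.28, limma adjusted p 0.00113). These cytosolic chaperones were apart in every embryo, and Hsp90aa1 lost its call without the 4 embryos highest in mitochondrial RNA (1.81). Their relative in the endoplasmic reticulum, Hspa5, went the other way, with 31.9, 61.9, 44.7, 39.7 and 65.9 and 12.2, 8.91, 10.4 and 15.3 copies (log2 change -1.91 ± 0.47, limma adjusted p 0.00240) and again no overlap. Of 30 cell cycle genes 2 (6.67%) were higher and 7 (23.3%) lower (with TMM scaling 3 and 4). The list median was -0.34 with the deposited scaling and -0.23 with TMM scaling relative to all genes. Ccna2, cyclin A2, held 67.2, 79.3, 85.2, 91.3 and 75.8 and 22.1, 22.3, 37.8 and 36.5 copies (log2 change -1.53 ± 0.33, limma adjusted p 0.000563) without overlap but was not called without the 4 embryos (-1.13). Ccne2, cyclin E2, fell from 8.24 to 0.980 copies. Of 12 p53 targets 3 (25%) were higher and 1 (8.33%) lower, with a median 0.37 with the deposited scaling and 0.22 with TMM scaling above all genes. None of the 3 higher calls held whichever embryo was left out, and without the 4 embryos highest in mitochondrial RNA 1 was higher and 1 lower by limma, with a median -0.24 relative to all genes. Of 27 genes of DNA and histone methylation 0 were higher and 1 (3.70%) lower. The list median was -0.28 with the deposited scaling and -0.20 with TMM scaling relative to all genes.

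The second theme was the transcripts switched off. Of the 1227 lower genes 686 (55.9%) were also among the 2990 genes (25.6% of those tested) that had been called higher from the early (E2C) to the late 2-cell stage (L2C). They are 22.9% of the latter and are called transient below. Their medians over genes of the stage mean were 0.240 copies in the oocyte, 0.306 in the zygote, 0.550 at E2C, 8.29 at L2C, 8.85 at the 4-cell, 1.66 at the 8-cell and 1.79 at the 16-cell stage. The low medians at E2C and at the 8-cell stage follow from how these genes were chosen, as in part do the higher ones at L2C and the 4-cell stage. The same choice favours genes with the highest mean at L2C or the 4-cell stage. The mean was highest at L2C for 335 and at the 4-cell stage for 346 of the 686 genes, and 304 had at least 10 copies at the 4-cell stage. Before L2C 407 were under 1 copy in each of the stages, at the 8-cell stage 257, and 212 on both sides; 211 were under 1 copy at the 8-cell and 16-cell stages. Embryos of the 4-cell and 8-cell stages did not overlap for 338 of the 686, beside 553 of all 1227 lower genes and 10.2% of all genes tested. The choice by a call between these stages favours such genes.

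The other 541 lower genes, by definition not called higher from E2C to L2C, had medians of 4.35, 5.16, 6.5, 5.59 and 5.25 copies from the oocyte to the 4-cell stage, then 0.906 and 1.56, and 260 of them were highest in the oocyte, the zygote or E2C. The 522 higher genes had medians of 0.677, 0.903, 1.07, 1.57 and 1.47 copies up to the 4-cell stage and 7.0 and 6.93 at the 8-cell and 16-cell stages. Of these, 222 were under 1 copy at the 4-cell stage, 131 were under 1 copy in every stage before the 8-cell stage, and 180 had a higher mean in the oocyte than at the 4-cell stage. The comparisons of L2C with the 4-cell and of the 8-cell with the 16-cell stage share embryos with the one described here, so their values are given side by side only.

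**Figure D4:**
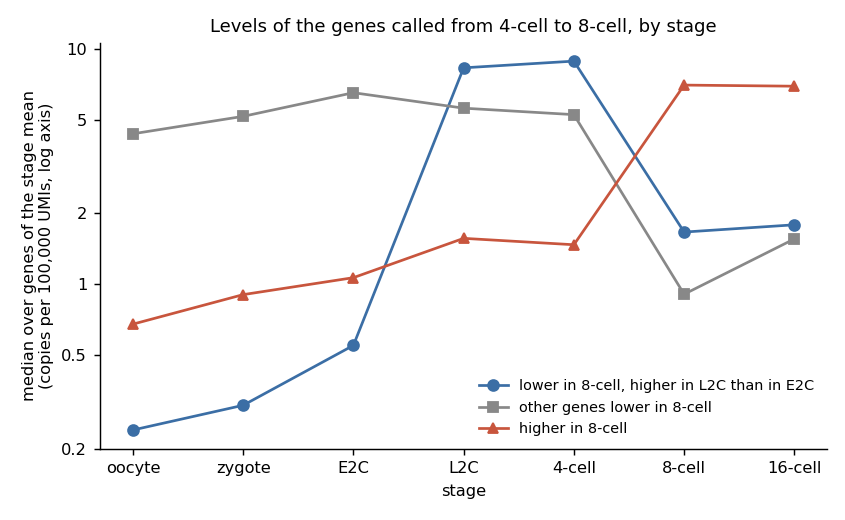
Median over genes of the stage mean (copies per 100,000 UMIs, log axis) from oocyte to 16-cell stage for the 686 transient, the 541 other lower and the 522 higher genes. Transient genes stand at 8.29 and 8.85 copies at L2C and the 4-cell stage and at 1.66 copies at the 8-cell stage, where the higher genes reach 7.0.

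The lower genes with the largest fall were taken from 281 that had at least 10 copies at the 4-cell stage, an adjusted p under 0.05 and embryos apart. B020004C17Rik, a RIKEN gene model at chr14:57015134-57018982 (mm10, plus strand), held 77.4, 139, 105, 55.6 and 119 copies in the 4-cell and 0.779, 1.13, 0 and 3.13 in the 8-cell embryos (log2 change -5.28 ± 0.50, limma adjusted p 1.22e-11). By limma's fitted log2 change with a pseudocount of 1 it was the largest fall, from 99.3 to 1.26 copies on average. Inka1, an inhibitor of the kinase PAK4, held 15.6, 14.7, 43.1, 32.1 and 47.7 and 0, 0.773, 3.03 and 3.81 copies (log2 change -3.97 ± 0.44, limma adjusted p 1.22e-09). Klf17, a zinc finger factor of the Krüppel-like family at chr4:117757836-117765648 (minus strand), held 8.56, 14.9, 12.9, 43.7 and 36.2 and 0.381, 0, 3.17 and 1.51 (log2 change -3.95 ± 0.43, limma adjusted p 8.63e-10), with 4-cell embryos 4 and 5 well above the others. Obox8, an oocyte-specific homeobox gene of a cluster on chromosome 7, held 67.8, 37.2, 50.5, 80.1 and 72.4 and 2.28, 4.03, 7.43 and 3.47 (log2 change -3.95 ± 0.49, limma adjusted p 1.39e-08). Prkcd, protein kinase C delta, held 30.4, 17.4, 32.95, 30.2 and 36.0 and 1.97, 2.08, 0 and 1.62 (log2 change -3.64 ± 0.41, limma adjusted p 1.22e-09). For each of these the lowest 4-cell embryo was well above the highest 8-cell embryo. That the stages lay apart was a condition of the choice.

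Some of the large falls ended at a count of 0. Borcs6, a subunit of a complex that positions lysosomes, held 7.79, 2.45, 17.4, 16.9 and 17.01 copies and then 0 UMIs in every 8-cell embryo. Chrna10, an acetylcholine receptor subunit, had 7.02, 22.5, 7.91, 6.5 and 9.37 and then 0. The 4-cell values of Borcs6 and Chrna10 rest on 76 and 42 UMIs. In 8-cell embryo 3, 1 UMI of the shallowest cell is 3.03 copies of the embryo mean, so lower levels can go unseen there. Drc1, of the dynein regulatory complex of cilia, held 4.69, 30.1, 4.55, 12.2 and 12.8 copies and then 0.371, 0, 0 and 0 (log2 change -3.29 ± 0.40, limma adjusted p 7.94e-09), a single 8-cell embryo with UMIs. Ntmt1, an N-terminal methyltransferase, held 12.7, 39.9, 31.9, 45.1 and 57.5 and 1.07, 1.63, 1.59 and 7.05 (log2 change -3.52 ± 0.49, limma adjusted p 2.82e-07). The unplaced model AC133103.1 went from 44.5 to 4.72 copies on average (-3.57). All of the genes of this and the preceding paragraph kept their call whichever embryo was left out, with TMM scaling and without the 4 embryos highest in mitochondrial RNA.

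**Figure D5:**
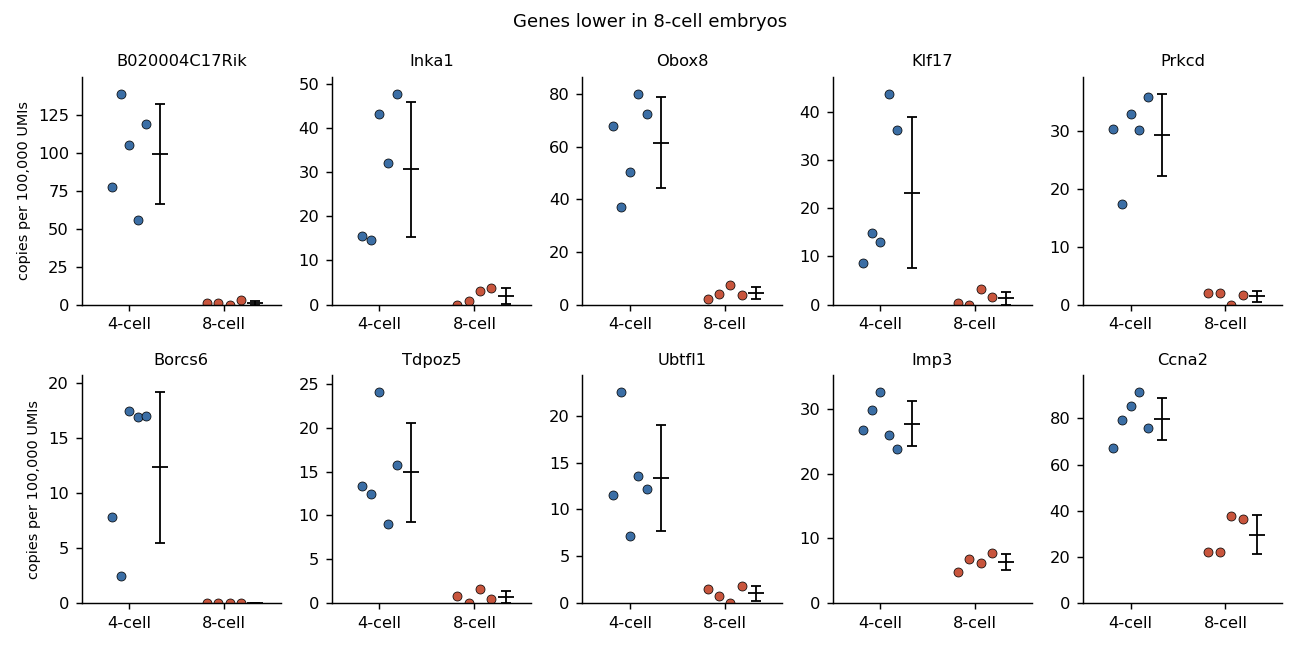
Copies per 100,000 UMIs of 10 genes that were lower at the 8-cell stage, from B020004C17Rik to Ccna2; each dot is an embryo (5 at the 4-cell, 4 at the 8-cell stage) and bars are the mean ± SD. B020004C17Rik goes from 99.3 to 1.26 copies and Borcs6 from 12.3 copies to 0, with no overlap between the stages.

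Families known from the 2-cell burst were counted from a list. Of 25 tested genes 0 were higher and 7 (28%) lower, beside 4.47% and 10.5% of all genes. The list median was -0.51 with the deposited scaling and -0.51 with TMM scaling relative to all genes. Summed over the list, the 4-cell embryos held 75.9, 86.6, 107, 90.0 and 107 and the 8-cell embryos 21.4, 22.9, 16.7 and 31.1 copies, with no overlap. Tdpoz5, of a family with TRAF and POZ domains at chr3:93960292-93961314 (minus strand), held 13.3, 12.5, 24.1, 8.98 and 15.8 and 0.774, 0, 1.59 and 0.395 copies (log2 change -3.31 ± 0.38, limma adjusted p 1.87e-09). Tdpoz4, of the same family, had 3.92, 10.03, 4.94, 9.78 and 9.32 and 0, 0.397, 0 and 0.398 (log2 change -2.83 ± 0.31, limma adjusted p 9.87e-10). Ubtfl1, a relative of the nucleolar factor Ubtf, held 11.5, 22.5, 7.14, 13.6 and 12.2 and 1.46, 0.766, 0 and 1.82 (log2 change -2.60 ± 0.47, limma adjusted p 4.37e-05). Usp17lb and Spz1, at 5.52 and 4.62 copies at the 4-cell stage, had 0 UMIs at the 8-cell stage. These were below 10 copies and were picked out after their values were seen. The Zscan4 genes of the same list, given above with the markers, were already near 0 at the 4-cell stage, and Usp17le had 0 UMIs in all 9 embryos.

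The 250 bases before the RefSeq starts of 3 lower genes are printed as for Aqp3, with matches to the same boxes in capitals (GRCm38.p6): B020004C17Rik (chr14:57014884-57015133, plus strand), with overlapping TATA boxes on the minus and plus strands 32 and 30 bases before the start; Klf17 (chr4:117765667-117765916, minus strand), with GC boxes 240 and 17 bases before it; and Tdpoz5 (chr3:93961315-93961564, minus strand), with no match. Their most abundant isoforms began 1401, 15 and 186 bases downstream of those starts.
B020004C17Rik: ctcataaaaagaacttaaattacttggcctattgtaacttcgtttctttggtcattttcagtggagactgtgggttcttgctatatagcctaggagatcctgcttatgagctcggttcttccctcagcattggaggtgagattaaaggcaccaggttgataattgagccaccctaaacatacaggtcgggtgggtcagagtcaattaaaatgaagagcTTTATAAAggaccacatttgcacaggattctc
Klf17: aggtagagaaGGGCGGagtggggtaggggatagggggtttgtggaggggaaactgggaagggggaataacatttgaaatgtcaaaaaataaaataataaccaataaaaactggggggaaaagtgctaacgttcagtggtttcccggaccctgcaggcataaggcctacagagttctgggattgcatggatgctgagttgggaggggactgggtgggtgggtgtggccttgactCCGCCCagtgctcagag
Tdpoz5: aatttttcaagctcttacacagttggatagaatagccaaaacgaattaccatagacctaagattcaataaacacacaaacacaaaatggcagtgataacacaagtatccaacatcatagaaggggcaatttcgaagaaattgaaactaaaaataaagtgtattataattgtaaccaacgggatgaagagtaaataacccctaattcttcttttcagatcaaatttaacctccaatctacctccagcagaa

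Over the 512 transient genes with a promoter in the table the TATA box occurred in 7.62%, the GC box in 64.3% and the ETS core in 32.2%, beside 8.18, 62.2 and 26.4% of the genes tested.

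In larger families the share of lower genes was close to that of all genes. Of 746 tested gene models with Gm numbers 10 were higher and 84 (11.3%) lower, of 371 RIKEN models 8 and 47 (12.7%), and of 232 Zfp genes 1 and 27 (11.6%), beside 10.5% of all genes. With TMM scaling these were 13 and 65, 9 and 35, and 4 and 16. Their summed levels went from 1442 ± 128 to 876 ± 27.9, from 1334 ± 142 to 700.1 ± 72.5 and from 721 ± 64.8 to 514 ± 32.98 copies. Their medians lay 0.05, -0.06 and -0.18 from that of all genes (-0.04, -0.15 and -0.22 with TMM scaling). Among them Gm5788 held 18.4, 17.4, 15.2, 7.05 and 15.2 and 0.797, 0, 0 and 0.398 copies (log2 change -3.34 ± 0.48, limma adjusted p 5.85e-07), and Zfp639 14.5, 24.7, 7.97, 13.4 and 17.1 and 1.72, 1.14, 0 and 1.48 (log2 change -2.76 ± 0.38, limma adjusted p 1.54e-07). Zfp622 had 22.6, 39.9, 44.4, 20.03 and 53.1 and 3.90, 8.79, 16.6 and 8.65 (log2 change -2.05 ± 0.40, limma adjusted p 0.000118). Gm5788 and Zfp639 were far apart between the stages, and Zfp622 was apart by the narrow gap between 4-cell embryo 4 and 8-cell embryo 3 and not called without the 4 embryos highest in mitochondrial RNA (-1.51). Of the 8 Obox genes 3 were lower and 0 higher, with a median -0.74 with the deposited scaling and -0.77 with TMM scaling relative to all genes: Obox8, Obox3 (8.32 to 0.101 copies, most of it in 4-cell embryo 2) and the pseudogene Obox4-ps35 (4.19 copies to 0 UMIs). Of 12 Pramel, Pramef and Oog genes 1 (8.33%) was higher and 2 (16.7%) lower, beside 4.47% and 10.5% of all genes. The higher gene was Pramel5 (5.55 to 17.1 copies), and Oog1 (9.05 to 1.88) was the lower call that held whichever embryo was left out. The list median lay 0.17 with the deposited scaling and 0.19 with TMM scaling above all genes. The edgeR fit did not call Oog1 (-1.36). Obox3 (-1.12), Pramel5 (1.70) and Oog1 (-1.001) were not called without those 4 embryos.

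Lower genes were also looked at by position, among neighbouring tested genes. There were 3 runs of 4 or more lower neighbours: 7 on chromosome 3 between 93936633 and 94266784 (Gm9117, Tdpoz5, Gm9125, Gm10697, Gm10696, Gm5286 and Gm4778), 4 on chromosome 12 between 87494721 and 87622955 (Gm5788, Gm8300, Oog1 and Gm4027), and 4 on chromosome 16 between 31947050 and 32079342 (0610012G03Rik, Ncbp2, Senp5 and Pak2). How many such runs arise by position alone, with 10.5% of all genes lower, was not tested. The run on chromosome 3 lies in the Tdpoz cluster, and apart from Oog1 the run on chromosome 12 is of gene models. By chromosome, the share of tested genes that were lower went from 6.52% on X to 13.3% on 12 and on 16. The most abundant isoform of the lower genes was a single exon for 6.10%, against 0.818% of the higher genes and 3.64% of all tested genes, and its median was 1624 nt and 4 exons against 1398 nt and 6 exons. Of lower genes with a position 7.88% were annotated as long noncoding RNA or processed transcript, against 1.73% of the higher and 7.38% of all tested genes.

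At the level of isoforms, 29409 were tested and 2333 (7.93%) called, 1069 (3.63%) higher and 1264 (4.30%) lower; with TMM scaling 1588 were higher and 775 lower. Classes follow the match to known transcripts: full splice match (FSM), incomplete splice match (ISM), an unlisted combination of listed splice sites (NIC) and a transcript with an unlisted splice site (NNC). Of 11443 FSM isoforms 4.12% were higher and 7.39% lower, of 12431 ISM isoforms 3.70 and 1.13%, of 2225 NIC isoforms 3.91 and 3.78%, and of 3310 NNC isoforms 1.51 and 5.83%. With the deposited scaling, higher isoforms were thus the more frequent calls among ISM and lower isoforms among FSM and NNC. Shares by class are not given with TMM scaling. In shares of UMIs, NNC isoforms took 4.38, 3.81, 5.14, 4.98 and 5.55% in the 4-cell and 3.40, 3.45, 3.81 and 3.59% in the 8-cell embryos (exact permutation p 0.0238, 0.119 adjusted over 5 measures), which touched at 3.81%. FSM (80.0 and 80.7%), ISM (11.97 and 12.6%), NIC (3.22 and 3.14%) and the mean length (1347 ± 85.7 and 1271 ± 60.9 nt) differed by less than the spread between embryos or about as much, with exact permutation p values of 0.730, 0.770, 0.675 and 0.167.

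Of the called isoforms 1033 belonged to genes that were not called themselves, 545 higher and 488 lower, 47 genes had isoforms called in both directions, and 845 of the 1749 called genes had a called isoform. An NNC isoform of Rplp0 of 1482 nt, starting at chr5:115557227, held 143, 6.56, 171, 115 and 172 and then 46.8, 3.65, 20.2 and 48.3 copies, with adjusted p 0.0618 by limma, while the gene held 324 and 353. Embryo 2 of either stage had little of it, and its call ended without 4-cell embryo 3, 4 or 5 or 8-cell embryo 2 (log2 changes -2.27, -2.27, -2.03 and -1.45), with TMM scaling (-2.03), no array weights (-1.91), a pseudocount of 0.5 (-2.38) or no filter (-2.10). Nor was it called by edgeR (-1.72), by DESeq2 (-1.99) or without the 4 embryos highest in mitochondrial RNA (-2.20). Other isoforms lower in genes that were not called were those of Tbcb (NNC, 10.5 to 0.463 copies), Elp5 (FSM, 8.86 to 0.8054), Csnk1e (NIC, 11.2 to 3.38) and Rbm8a (NNC, 6.61 to 0.190). Each was under 1 copy in the oocyte and between 8.96 and 16.5 copies at L2C. That of Csnk1e was not called without the 4 embryos highest in mitochondrial RNA (-1.43), by edgeR (-1.74) or by DESeq2 (-1.83).

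In the other direction, an FSM isoform of Zfp706 of 2518 nt held 0, 0, 1.79, 0.681 and 0 copies and then 8.93, 8.82, 12.7 and 7.55 (2.85, limma adjusted p 0.000674), after 7.17 copies in the oocyte, with the gene at 110.2 and 201 copies. All 8-cell embryos were above all 4-cell embryos. ISM isoforms, which lack part of the listed exons, rose for Rps3a1 (902 nt, 3.80 to 18.6 copies), Naca (401 nt, 1.37 to 6.77) and Isyna1 (641 nt, 1.53 to 10.9), and a single-exon FSM isoform of Sfn from 0.384 to 6.59 copies. That of Sfn was not called without those 4 embryos (1.31) or by DESeq2 (3.53), and that of Naca was not tested by edgeR and DESeq2. In each of these genes the isoform was a small part of the gene, whose own means were 126 and 238, 69.6 and 161, 104 and 284, and 89.7 and 235 copies.

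A change in the share of an isoform within its gene was called for 5 of 2848 genes (0.176%), none of which had 10 copies in both stages: Itgb7, Eme1, Tusc2, Gsto1 and Dnal4, named after their values were seen. Gsto1, a glutathione transferase, rests on the most molecules: its main NIC isoform was all 16 UMIs of the gene's tested isoforms at the 4-cell stage and 51 UMIs, or 64.4%, at the 8-cell stage (gene-level adjusted p 0.00563 by limma). Tusc2 had 1 of 2 FSM isoforms, with all 4 UMIs, at the 4-cell stage and both, with 10 UMIs each and 51.0 and 49.0%, at the 8-cell stage. The called isoforms of Itgb7 (7 and 0 UMIs), Eme1 (7 and 1) and Dnal4 (0 and 5) had fewer. No gene was called with isoforms present in at least 4 embryos, or without the 4 embryos highest in mitochondrial RNA and with isoforms present in at least 2 embryos. Leaving out single embryos gave 13 genes without 4-cell embryo 2 or 8-cell embryo 3, 2 without 4-cell embryo 1, 1 without 4-cell embryo 5 or 8-cell embryo 2, and 0 without 4-cell embryo 3 or 4 or 8-cell embryo 1 or 4, so the count rests on few molecules in few embryos.

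Transcripts stored in the egg were counted from a list. Of 22 tested maternal genes 1 (4.55%) was higher, Khdc3, and 0 were lower, beside 4.47% and 10.5% of all genes. The list median was -0.58 with the deposited scaling and -0.58 with TMM scaling relative to all genes. H1foo, Oosp1, Bcl2l10 and Btg4, given under the other observations, were still present. Bcl2l10 had the highest 4-cell mean of the list, 94.4 copies. Gdf9, an oocyte growth factor, held 23.4, 4.90, 30.01, 40.2 and 39.2 and 20.9, 0.526, 14.6 and 24.5 copies and was not called (-1.58), after 697 in the oocyte. It was called lower without 4-cell embryo 2 (-1.75) or 8-cell embryo 4 (-1.96). Zp3, of the egg coat, held 9.70 and 4.48 copies, after 9.91 in the oocyte, and was not called. Markers of cells outside the embryo were summed. Of 18 cumulus and granulosa markers 14 were in the table and 10 of these at 0 in all 9 embryos, among them Fshr, Inha and Has2. The sums were 10.3, 42.1, 28.8, 13.9 and 17.6 and 3.87, 4.75, 6.20 and 5.90 copies, most of it Amhr2. Amhr2, the receptor of anti-Müllerian hormone, held 7.39, 42.1, 27.3, 11.99 and 16.9 and 3.50, 4.75, 6.20 and 5.56 copies (log2 change -1.51 ± 0.40, limma adjusted p 0.00464), highest in 4-cell embryo 2, and was not called without the 4 embryos highest in mitochondrial RNA (-1.31). Of 8 blood and differentiated-cell markers present among the genes, 3 were at 0, Hbb-bs and Ptprc among them. The sums were 29.4, 17.4, 18.5, 18.6 and 17.4 and 8.17, 11.2, 13.9 and 6.85 copies, and none of the 3 tested was called by limma. Hba-a1, which encodes alpha-globin, held 23.1, 0, 7.14, 9.63 and 9.16 and 4.15, 4.31, 3.17 and 3.01 copies (log2 change -1.09, limma adjusted p 0.151).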

How the data were processed

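Single-cell libraries of mouse preimplantation embryos were read as full-length cDNA on a PacBio sequencer. The authors processed consensus reads with SMRT-Link and scISA-Tools, used minimap2 for alignment to the mm10 genome and gffcompare for gene assignment, and collapsed and classified isoforms with cDNA_Cupcake and SQANTI3, leaving out isoforms seen in fewer than 5 cells. The authors deposited CPM put on a scale of 100,000, for which their methods name mapped reads as the total, in all columns; for the columns up to the 4-cell stage this deposited unit is recorded here as a score. All values of a cell were whole multiples of its smallest value within a tolerance of 0.1, and this step was taken as 1 UMI, so that values are given as copies per 100,000 UMIs. The 40 columns per table without an oocyte, zygote or embryo number were not used. The value of an embryo was the mean over its cells (121 cells, 43 oocytes, zygotes and embryos, 7 stages). Features with at least 1 copy in at least 4 embryos were tested with limma 3.58.1 (R 4.3.3; trend, array weights, log2 of the value plus 1, no covariates, Benjamini-Hochberg adjustment over all features) in 1 fit over all stages, as values and not counts were deposited; the limits of a call, 1 for the size of the log2 change and 0.01 for the unadjusted p, are those of the study. Isoform switches were tested by limma on isoform shares within a gene after an arcsine square-root transform, among isoforms present in at least 3 embryos of a stage, with Simes p values per gene and limits of 0.01 for the gene and 0.05 for the isoform after adjustment. Single values per embryo were compared by exact permutation. Thinning took 10000 UMIs per cell, without cells that had fewer, and the mean of 5 draws. Alternatives were other pseudocounts and filters, no weights, 2 stages only, summed UMIs, cells under 10000 UMIs left out, each embryo left out, edgeR 4.0.16 and DESeq2 1.42.0 on recovered UMIs, TMM scaling, mitochondrial genes or the embryos highest in them left out, and the embryo number as a block. The fits were also tested on simulated data, of which no result is reported here. The 38 gene lists were described by counts and medians and not tested. Genes named are (a) in each direction at most 15 of largest change (adjusted p under 0.05, at least 10 copies, embryos apart), (b) up to 4 called members per list and direction at 10 copies or more, (c) fixed markers whatever their change, (d) up to 6 switch genes at 10 copies or more and (e) up to 6 isoforms per direction in genes that were not called; list members under 10 copies were named after their values were seen. Some genes and isoforms that fall under this rule are not reported. Members and lists were chosen with earlier results of these data known. Tables and plots were made with Python 3.11.15, numpy 2.4.6, pandas 2.3.3 and matplotlib 3.10.9.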

Additional observations from a re-analysis of the deposited data

Results flagged for a closer look

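In each stage the values named above (depth, isoform shares, genes and list sums; 354 groups of 4 or 5 embryos) were searched for an embryo set far apart from the others by Dixon's test, and 42 were found. Chance gives about 1 in 20 groups of normally distributed values; where a single embryo held UMIs, the test finds it whatever their number. They are given as the value of the embryo and, in brackets, the range of the others of its stage. In 4-cell embryo 1 these were Ass1 at 2.62 (0), Krt18 at 2.62 (0 to 0.662), Slc2a3 at 6.93 (0 to 1.52) and the summed blood and differentiated-cell markers at 29.4 (17.4 to 18.6). In 4-cell embryo 2 these were Capzb at 0 (1.63 to 1.87), Prkci at 10.03 (0.622 to 2.55), Ezr at 2.45 (0 to 0.662), Msmo1 at 10.03 (0.622 to 1.58), Gata6 at 10.03 (0 to 1.20), Chrna10 at 22.5 (6.5 to 9.37), Suclg2 at 30.1 (0 to 1.87), Rpl3l at 40.1 (0 to 2.99) and Obox3 at 30.1 (1.17 to 4.73). In 4-cell embryo 3 these were Mrpl41 at 58.1 (21.5 to 31.2), Psmc6 at 8.24 (11.6 to 12.7) and Zscan4c at 4.67 (0 to 0.685). In 4-cell embryo 4 these were Lasp1 at 5.35 (0), Hk1 at 0.584 (0), Slc2a1 at 1.19 (0), Npm1 at 251 (161 to 183), Pou5f1 at 9.30 (0 to 2.44), Gata3 at 0.570 (0), Gm5788 at 7.05 (15.2 to 18.4), Zfp352 at 1.17 (0) and Ocln at 0.584 (0). In 4-cell embryo 5 these were Elf3 at 1.81 (0) and Usp17lb at 11.4 (3.03 to 5.10). In 8-cell embryo 1 these were Ezr at 1.084 (0), Cdx2 at 0.371 (0), Drc1 at 0.371 (0) and Tfcp2l1 at 8.78 (4.56 to 4.76). In 8-cell embryo 2 this was the summed genes of pyruvate dehydrogenase and the TCA cycle at 353 (415 to 423). In 8-cell embryo 3 these were genes per cell at 10000 UMIs at 2620.2 (2855 to 2879.6), Cdh1 at 1.59 (9.60 to 9.91), the summed genes of fatty acid handling at 70.3 (107 to 114) and the summed Zfp genes at 563 (493 to 504). In 8-cell embryo 4 these were the FSM share (%) at 83.9 (79.4 to 80.1), the ISM share (%) at 9.24 (13.4 to 14.0), Aqp3 at 23.7 (10.05 to 12.3), Hsp90ab1 at 382 (294 to 307), Ntmt1 at 7.05 (1.07 to 1.63) and Obox3 at 0.406 (0). The 4-cell embryo 2 and the 8-cell embryo 3 are the shallowest of their stages; in the former the values of 10.03 copies are 1 UMI, those of 30.1 are 3 UMIs and that of 40.1 is 4 UMIs of its shallowest cell. Whether depth accounts for the other values was not tested.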

How the results depend on the processing

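The counts of 1749 genes (522 higher and 1227 lower) and 2333 isoforms (1069 higher and 1264 lower) depended on the settings as follows, and the cause was not tested unless it is given. A pseudocount of 5, which lowers changes at few copies, left 544 genes (185 higher and 359 lower) and 522 isoforms (250 higher and 272 lower). On the recovered UMIs edgeR and DESeq2, which tested fewer features (6234 genes and 4285 isoforms), called 606 and 682 genes lower, and 544 isoforms (321 higher and 223 lower) and 544 isoforms (262 higher and 282 lower). The 4-cell and 8-cell embryos alone gave 1266 isoforms (613 higher and 653 lower), and at least 5 copies in 4 embryos, which tests fewer, 1162 (518 higher and 644 lower). Of the settings chosen after seeing the data, TMM scaling gave 806 higher and 740 lower genes and 775 lower isoforms, and leaving out the 4 embryos highest in mitochondrial RNA gave 267 higher genes. Except for the block below, other settings stayed within 1.5 times of these counts of genes and isoforms. Without single embryos, genes ranged over 1417 to 1757 (414 to 536 higher, 1003 to 1265 lower) and isoforms over 1738 to 2657 (865 to 1190, 873 to 1529). Isoform switches, 5 genes by limma, were 0 with isoforms present in at least 4 embryos and 0 without those 4 embryos and with isoforms present in at least 2 embryos (chosen after seeing the data), and 0 to 13 without single embryos. Among values by embryo (8-cell minus 4-cell), genes per cell went from -952 (-1392 to -442 without single embryos) to -614 on thinning, which leaves out cells under 10000 UMIs and where the difference passed the test. UMIs per cell (-1323; -5404 to 3965 without single embryos), the FSM share in percentage points (0.684; -0.362 to 1.53; -4.53 with each isoform counted once), the ISM share (0.602; -0.331 to 1.80; 5.65) and the NIC share (-0.0803; -0.216 to 0.00596; 0.0931) changed sign and did not pass the test. Embryos of the stages share numbers 1 to 4, which nothing in the labels pairs, and the deviations of same-numbered embryos over genes correlated by 0.123, 0.0632, 0.0228 and 0.136; 4-cell embryo 3 correlated best with 8-cell embryo 4 and the others with their own number. Over isoforms the values were 0.174, 0.103, 0.0320 and 0.276, with the same best partners. With the number as a block, a setting chosen after seeing the data, 1485 genes (418 higher and 1067 lower) and 1655 isoforms (822 higher and 833 lower) were called, the isoforms of Rplp0 (-1.53) and Csnk1e (-1.22) not among them, and of the genes named in the text Acadm (0.73), Eif2s2 (1.36), Mrpl38 (-1.44), Npm1 (0.99), Rpl3 (1.24) and Suclg2 (1.07) were not called while Hk2, Klf5, Pard6b and Prkci were. Over all settings the 130 tested genes named in the text gave 3075 comparisons with the reported call, of which 2961 kept it, 84 lost it, 30 gained one and 0 turned their direction. Of the losses 37 came without the 4 embryos highest in mitochondrial RNA and 20 with a pseudocount of 5. Among the latter were Klf4 (0.85), Tdgf1 (0.94), Tfcp2l1 (0.996), Fgf4 (-0.81), Hk1 (0.90), Ldhb (-0.99), Sucla2 (0.95), Krt8 (0.86) and Tpm4 (0.96). Depth limits genes under 10 copies most, above all in 4-cell embryo 2 and 8-cell embryo 3.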

Other observations

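Some transcripts of the oocyte were lowest in embryo 2 of both stages. H1foo, which encodes a linker histone of the oocyte, held 1593 copies in the oocyte and 32.8 at L2C, then 151, 20.1, 82.6, 99.8 and 104 in the 4-cell and 106, 6.01, 49.1 and 61.0 in the 8-cell embryos. Oosp1, which encodes a secreted oocyte protein, held 1179 copies in the oocyte and 39.9 at L2C, then 157, 19.8, 48.5, 53.3 and 69.7 in the 4-cell and 71.6, 9.25, 39.1 and 42.7 in the 8-cell embryos. Bcl2l10, a Bcl2-family gene of the egg, held 954 copies in the oocyte and 46.3 at L2C, then 201, 9.79, 46.4, 106 and 109 in the 4-cell and 108, 9.96, 77.6 and 62.7 in the 8-cell embryos. Btg4, which encodes an adaptor of mRNA deadenylation, held 764 copies in the oocyte and 48.2 at L2C, then 123.1, 2.45, 40.9, 59.1 and 60.1 in the 4-cell and 65.0, 4.79, 53.96 and 45.1 in the 8-cell embryos. For these 4 genes and for Gdf9 embryo 2 was the lowest of either stage. Mos, Oosp2 and Bmp15, at few copies, were at 0 in embryo 2 of both stages, the last pair also in other embryos. Zp3, Padi6 and Tle6 were lowest in 4-cell embryo 2 but highest in 8-cell embryo 2 among the embryos of each stage, Ooep was highest in 8-cell embryo 2, and Npm2 was highest in 4-cell embryo 2. None of H1foo, Oosp1, Bcl2l10 and Btg4 was called from the 4-cell to the 8-cell stage by limma. All of these were picked out after their values were seen, and no test was made of differences between embryos of a stage.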
